A study of Mus musculus with 14 samples.

Results

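The comparison described here set mouse tail fibroblasts labelled wildtype against the same kind of cells after 3 weeks of reprogramming, in which Oct4, Sox2, Klf4 and cMyc were expressed ectopically. It used 4 of the 14 libraries of the study: 1 reduced representation bisulfite sequencing (RRBS) library and 1 RNA library of untreated wildtype fibroblasts, and 1 of each from the wildtype 3-week culture. The 4 libraries were picked by their labels, with earlier results of these data known. The genotype wildtype stands in the study against AID-null, and both groups carry no other stated alteration. The 3-week library is labelled as reprogrammed fibroblasts and not as a picked clone, so it can hold cells at different stages. The sources used here name no strain, age, number of animals or means of delivering the factors. With 1 library per side and assay there was no replicate spread and no statistical test. Every difference below is therefore a difference between 2 libraries, and the words higher and lower mean only that a fixed size was passed.

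Ectopic Oct4, Sox2, Klf4 and Myc can carry a fibroblast to an induced pluripotent state, passing through loss of mesenchymal genes and gain of epithelial genes before the cell's own pluripotency network is active. DNA methylation in mammals sits mostly on cytosines of CpG dinucleotides. It keeps a set of germline genes silent in body cells, marks 1 parental copy at imprinted promoters, and in female cells covers the CpG island promoters of the inactive X chromosome. RRBS reads cytosines near restriction sites and so samples CpG-rich DNA most densely.

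The fibroblast RRBS file listed 1772974 CpG positions at a median coverage of 113 reads, and the 3-week file 1965414 positions at a median of 82. Over all listed mitochondrial positions 0.0995% and 0.0968% of reads were methylated. Both libraries listed few Y positions, 32 and 27, against 506 to 648 in the 5 AID-null RRBS libraries of the series. The Y genes Eif2s3y, Ddx3y, Kdm5d and Uty were all listed at 0 in both RNA libraries, while Xist, the RNA of the inactive X chromosome, was present in both. The labelled cell type fitted its markers: the fibroblast library held Col1a1, Col1a2 and Col3a1 at 26383, 25482 and 6612 FPKM and Thy1, Pdgfra, Dcn and Lum at 192 to 3678 FPKM. Of the pluripotency markers, it listed Zfp42, Esrrb, Utf1 and Dppa4 at 0 and Nanog, Dppa5a and Tdgf1 at 1.00 to 2.24 FPKM. RNA levels are in FPKM, a fragment count divided by transcript length and library size, and the RNA read depth is unknown.

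Of 15196 genes that reached 1 FPKM in at least 1 of the libraries, 4098 (27.0%) were at least 2-fold higher at 3 weeks and 2693 (17.7%) at least 2-fold lower, on the log2(FPKM + 1) scale. The median gene differed by 0.16 log2 units. Pluripotency, epithelial, cell cycle and germline genes stood above the fibroblast level, and matrix genes and mesenchymal regulators below it. A log2 difference against a gene listed at 0 depends on the added 1, so for such genes the levels are given instead. A gene listed at 0 in fibroblasts was compared only if it reached 1 FPKM at 3 weeks, so it could only count as higher. This held for 1436 of the 4098, and in reverse for 275 of the 2693. Counts of lists with many such genes rest partly on this filter.

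The 4 factor genes did not move alike. Pou5f1, which encodes Oct4, went from 2.32 to 2390.5 FPKM and Sox2 from 7.61 to 738 FPKM. Klf4 was at 107 FPKM in both libraries, and Myc was at 127 FPKM in fibroblasts and 81.6 at 3 weeks. FPKM per gene does not separate RNA of the cell's own gene from RNA of a delivered copy. The fibroblasts thus already carried Klf4 and Myc RNA at levels that the 3-week culture did not exceed.

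Of 16 naive pluripotency transcription factors, 15 were higher and 0 lower, with a median log2 difference of 6.48 against 0.16 over all genes compared. Nanog, a core factor of the network, went from 1.29 to 347 FPKM. Esrrb, Zfp42 (Rex1), Nr0b1, Sall4 and Tcl1 were listed at 0 in fibroblasts and stood at 414, 691, 332, 223 and 247 FPKM at 3 weeks. Prdm14 and Nr5a2, also listed at 0 in fibroblasts, reached only 23.4 and 22.02 FPKM. Klf2, which fibroblasts already carried at 60.3 FPKM, stood at 238. Tcea3 was the member that did not pass, at 26.8 and 41.0 FPKM.

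All 20 late pluripotency markers were higher, with a median log2 difference of 7.29. These are genes that come on when the endogenous network is established. Dppa5a went from 2.24 to 3160 FPKM and Tdgf1 (Cripto) from 1.00 to 922. Utf1, L1td1, Lin28a and Fgf4 were listed at 0 in fibroblasts and stood at 873, 744, 271 and 250 FPKM. The lowest 3-week levels in the list were 2.80 FPKM for Zscan4c, 14.5 for Dppa3 (Stella) and 15.2 for Lin28b. The list thus spanned 3-week levels from 2.80 to 3160 FPKM.

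Epithelial genes were higher in 26 of 26 cases, with a median log2 difference of 4.89. Cdh1 (E-cadherin) went from 0.41 to 296 FPKM. The adhesion gene Epcam, the tight junction gene Cldn4 and the splicing regulator gene Esrp1 were listed at 0 in fibroblasts and stood at 415, 206 and 46.4 FPKM. Keratinocyte genes, the markers of another cell type that tail skin could hold, moved with this list: 12 of 15 compared were higher and 1 lower, and their summed level went from 29.5 to 594 FPKM. Of the keratins, Krt14 went from 1.62 to 17.6 FPKM, Krt6a from 0.57 to 33.3, and Krt17 and Krt16 from a listed 0 to 85.8 and 12.9, while Krt5 was at 1.67 and 1.04 FPKM and Krt15 was listed at 0 in both libraries. Trp63, a regulator of basal keratinocytes, went from 10.6 FPKM to a listed 0. Perp and Krt6b led the 3-week sum at 275 and 96.2 FPKM. The part of keratinocytes in the epithelial levels was not tested.

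All 24 cell cycle genes were higher, with a median log2 difference of 3.27. Ccnb1 (cyclin B1) went from 12.9 to 244 FPKM, Cdc20 from 31.5 to 530, Mcm3 of the replicative helicase from 38.1 to 535, and Mki67 from 23.7 to 112. Of 16 inhibitor and p53 pathway genes 4 (25%) were higher and 2 (12.5%) lower, shares near the 27.0% and 17.7% over all genes. Trp53 itself went from 237 to 606 FPKM, and its targets Mdm2 and Bbc3 from 253 to 529 and from 47.3 to 110.35. Its target Cdkn1a was at 1206 and 754 FPKM, and the inhibitor gene Cdkn2a at 381 and 307. Cdkn2b and Cdkn2c, inhibitors of the G1 kinases, were the members that were lower, at 396 and 169 FPKM and at 104 and 26.7 FPKM.

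**Figure D1:**
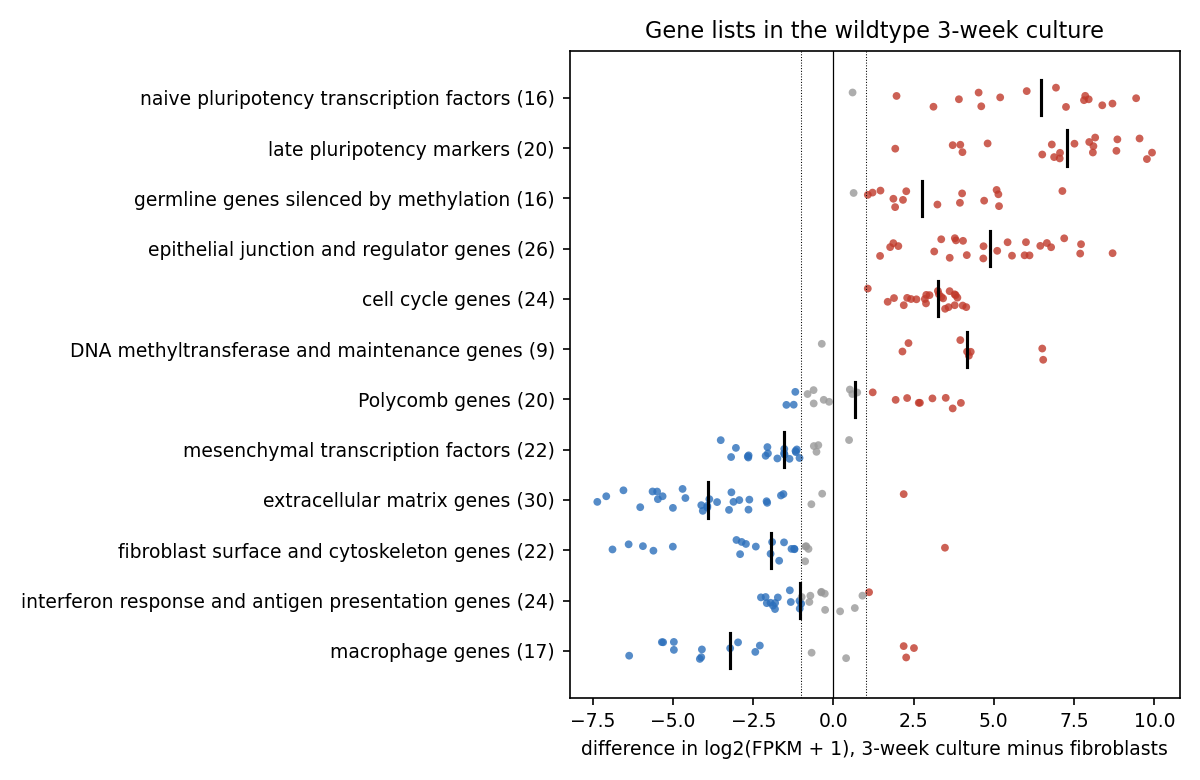
Each point is 1 gene, placed by its difference in log2(FPKM + 1) between the wildtype 3-week culture and wildtype fibroblasts (1 library each). Black bars are list medians, dotted lines mark a difference of 1 in either direction, and numbers in brackets are the genes compared. All members of the late pluripotency, epithelial and cell cycle lists lie to the right of the upper line, and 27 of 30 matrix genes lie to the left of the lower one.

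Genes of DNA methylation were among those that were higher. In the list of methyltransferases and their partners 8 of 9 passed, with a median of 4.17. The de novo enzyme Dnmt3b went from 3.20 to 389 FPKM and its cofactor Dnmt3l from 7.64 to 785. The maintenance enzyme Dnmt1 went from 41.6 to 214 FPKM and its partner Uhrf1 from 16.8 to 330. Among genes of demethylation, deamination and base excision repair 10 of 19 (52.6%) were higher and 2 (10.5%) lower, against 27.0% and 17.7% over all genes. Tet1, which oxidises methylcytosine, went from 2.07 to 169 FPKM and the uracil glycosylase gene Ung from 9.08 to 203, while Tet3 was at 27.1 and 17.5 FPKM. Gadd45g and Gadd45b were the members that were lower, from 673 to 48.8 and from 180 to 48.6 FPKM. Genes that add methylation and genes linked with its removal thus stood higher in the same library.

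Polycomb genes were divided, with 9 of 20 (45%) higher and 3 (15%) lower, against 27.0% and 17.7% over all genes. The core subunit genes Ezh2, Eed and Suz12 and the accessory genes Jarid2 and Mtf2 were higher, at 208, 546, 289, 345 and 324 FPKM at 3 weeks against 32.2, 83.5, 74.6, 25.4 and 37.3. Among the Cbx readers, Cbx7 went from 13.0 to 219 FPKM. Cbx8 and the ubiquitin ligase gene Ring1 were among those lower, from 23.1 to 9.19 and from 57.8 to 24.8 FPKM. Of 14 heterochromatin and retroelement silencing genes 8 were higher and 0 lower, with Trim28 at 372 and 1910 FPKM.

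Extracellular matrix genes were lower in 27 of 30 cases (90%) and higher in 1 (3.33%), against 17.7% and 27.0% over all genes compared. Their median log2 difference was -3.90, and their summed level at 3 weeks was 9.14% of that in fibroblasts. The share of the fibroblast level that was left differed widely between members. Col1a1 and Col1a2, the chains of type I collagen, kept 0.604% and 0.733%, Postn 1.05% and Col3a1 1.99%. Fn1 (fibronectin) kept 10.5%, Dcn 33.9% and Tnc 62.0%. Timp1, an inhibitor of matrix proteases, kept 78.3%, and the protease gene Mmp3 was higher, at 366 and 1672 FPKM. Cartilage and bone genes went the same way, 10 of 13 (76.9%) lower and 3 higher, with Comp from 274 to 2.33 FPKM and Cilp from 2848 to 18.7. In a bulk culture, fewer cells of a type and less RNA per cell cannot be told apart.

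Surface and contractile genes of fibroblasts were lower in 17 of 22 cases (77.3%), against 17.7% over all genes compared, with a median of -1.94. Contractile genes were at the low end: Acta2 kept 1.17% of its fibroblast level, Myl9 1.92% and Tagln 1.58%. Thy1 kept 26.5%, Vim 25.7% and Pdgfra 42.5%, and the nucleotidase gene Nt5e was higher, at 7.58 and 94.4 FPKM. Mesenchymal transcription factors were lower in 18 of 22 cases (81.8%), with a smaller median of -1.54. Snai2 went from 379 to 45.2 FPKM, Prrx2 from 555 to 59.9, Zeb1 from 146 to 42.8 and Twist1 from 352 to 156. Twist2, Foxc2, Foxf1a and Fosl1 did not pass, at 60.7, 3.62, 19.4 and 84.9 FPKM at 3 weeks against 84.7, 5.67, 30.3 and 60.4. In total the matrix list kept 9.14% of its summed level and the transcription factor list 29.7%.

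Macrophage genes were also lower. Of 17 genes 12 (70.6%) were lower and 3 (17.6%) higher, against 17.7% and 27.0% over all genes compared. The summed level went from 1846 to 705 FPKM. The sum rests on the lysozyme gene Lyz2, from 1240 to 38.4 FPKM: without it the other 16 genes summed to 606 and 666 FPKM. Tyrobp, C1qa, C1qb, C1qc, Ptprc (CD45), Adgre1 (F4/80) and Aif1 were at 3.91 to 81.7 FPKM in fibroblasts and listed at 0 at 3 weeks. The members that were higher were Cd14, from 37.6 to 219 FPKM, Laptm5, from 54.3 to 265, and Cd53, from 12.0 to 58.3. The part of macrophages in the other lower genes was not tested.

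Outside the lists, the largest rises were of genes listed at 0 in fibroblasts: S100a8 at 863 FPKM, Trh at 693, Bex1 at 620, Aqp3 at 538 and Trap1a at 462. Trh encodes the precursor of thyrotropin-releasing hormone and Aqp3 a water and glycerol channel. Gldc, the glycine decarboxylase gene, went from 0.36 to 276 FPKM, and Zscan10, a zinc finger gene of pluripotent cells, stood at 188. Of the largest falls, Tnmd (tenomodulin) went from 541 FPKM to a listed 0, Aspn from 691 to 1.54, Ogn from 644 to 1.42, Thbs4 from 5882 to 25.03 and Col14a1 from 320 to 0.74.

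Methylation was compared at cytosines covered in both libraries. Over 1461159 autosomal positions, 25.3% were at least 80% methylated in fibroblasts and 3.24% at 3 weeks. Positions between 10% and 80% went from 18.6% to 41.1% of all, while those at or below 10% were 56.1% and 55.7%. Of all autosomal reads at these positions, 29.6% were methylated in fibroblasts and 23.5% at 3 weeks, with 95% Wilson intervals of at most 0.0063 points to each side that cover counting error only. Highly methylated positions were thus replaced by intermediate ones, and the share of positions near 0 stayed within 0.5 points.

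In 118449 autosomal tiles of 1000 bp the mean level went from 57.0% to 41.9%. At least 25 points were lost in 37958 tiles (32.0%) and gained in 2783 (2.35%). The chromosome means of the difference ranged from -13.4 points on chromosome 13 to -16.7 on chromosome 17, so the mean was lower on each of the 19 autosomes. Of 48132 tiles at 80% or more in fibroblasts, 1902 (3.95%) were still there at 3 weeks, 54.0% lay at 60% to 80% and 39.8% at 30% to 60%. At the other end 88.0% of the tiles below 10% stayed below 10%. Tiles at 10% to 20% in fibroblasts went up on average, from 14.8% to 24.6%, and 21.4% of them gained at least 25 points. These classes were cut on the fibroblast level itself, so their means are a description.

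**Figure D2:**
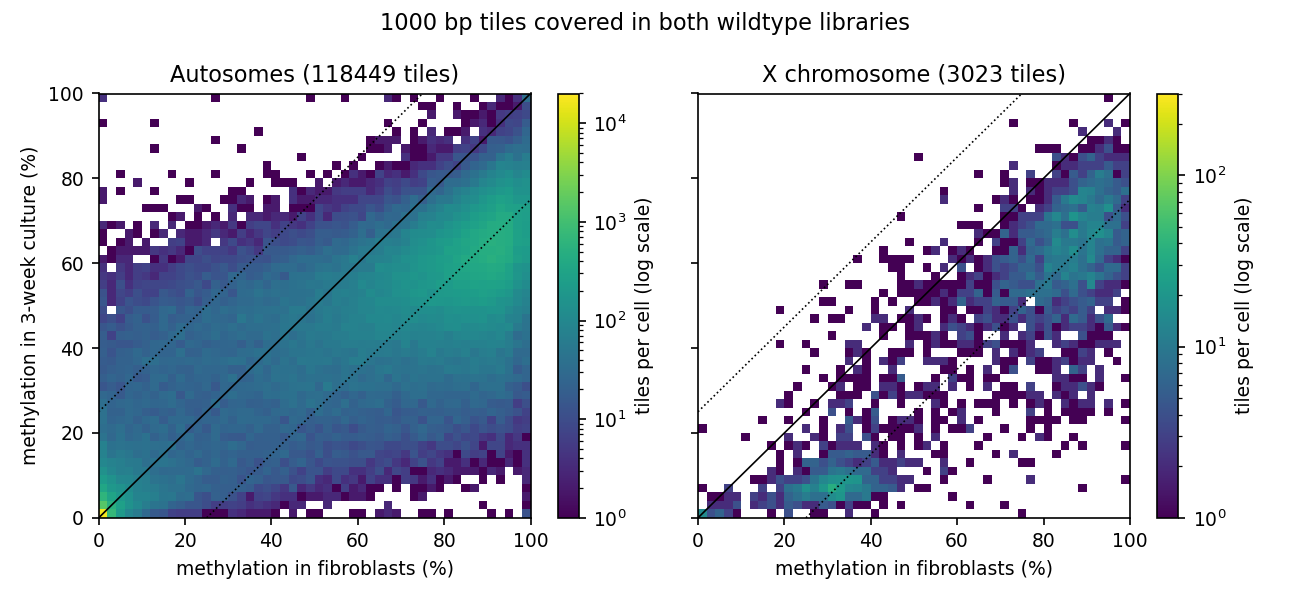
Each cell counts 1000 bp tiles by their methylation in wildtype fibroblasts (x axis, %) and in the wildtype 3-week culture (y axis, %), on a log colour scale with its own range for each panel. The solid line marks equal levels and dotted lines a difference of 25 points. Autosomal tiles above 80% in fibroblasts lie mostly between 30% and 80% at 3 weeks, and X tiles form a second group near 30% in fibroblasts and below 15% at 3 weeks.

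Among tiles at 60% or more in fibroblasts, loss was more frequent where more CpG positions were covered. The share that lost at least 25 points was 49.7% of tiles with 3 to 4 positions, 51.3% with 5 to 9, 60.8% with 10 to 19, 80.3% with 20 to 39 and 97.2% with 40 to 79. These classes held 36374, 25979, 6668, 732 and 72 tiles in that order. Densely covered methylated tiles were few: 810 autosomal tiles held at least 20 positions at 60% or more, and their mean went from 84.0% to 46.0%. Of these, 35 held a promoter that could be measured, and 6 of those 35 a promoter of a gene in the germline list. The median tile of these classes held 393 fibroblast reads with 3 to 4 positions and 6469 with 40 to 79, and the part of read depth in the trend was not tested. These density classes were chosen after their values were seen.

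The largest losses among tiles with at least 10 positions (mm9) were at chr4:40174001-40175000, from 93.9% to 13.5%, and at chr17:88039001-88040000, from 94.7% to 14.5%. Of tiles that gained, chr2:171560001-171561000 went from 1.40% to 53.3% and chr1:42596001-42597000 from 13.0% to 64.0%. None of the 10 most changed tiles overlapped a measured promoter. Without an annotation of that build, genes at these tiles were not looked up.

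Promoters were found on the deposited mm9 positions by the spacing of CpGs in RefSeq promoter sequences (GRCm38.p6, 250 bases before the start site to 50 after it). Of 11060 placed sequences 11057 lay on the gene's own chromosome, and 8262 autosomal and 199 X-linked genes had a promoter with at least 5 positions in both libraries. Nearly all autosomal promoters were free of methylation before and after: 7821 of 8262 were below 5% in fibroblasts, and 7649 of 8262 were below 5% in both libraries. Losses of at least 25 points were seen at 121 promoters (1.46%) and gains at 17 (0.206%). With a placement score of at least 12 these were 78 and 2, and with at least 10 positions 53 and 2. At the edge of the 25 points, C330024D21Rik and Gm52825 had differences of -25.2 and -25.1 points, and Acot10 and Mcts2 of -24.98 and -24.8 points.

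A promoter could be measured for 1500 of the 3818 autosomal genes that were higher and 1022 of the 2580 that were lower, and placement by CpG spacing favours CpG-rich windows. Of those measured, 1358 (90.5%) of the higher, 961 (94.0%) of the lower and 4133 of 4236 (97.6%) of the genes between were below 5% in both libraries, against 92.6% of all 8262 promoters. The pluripotency genes Sox2, Klf2, Gbx2, Tfcp2l1, Mybl2, Fgf4, Trim71 and Jarid2 had promoters at 0.00% to 1.60% in fibroblasts, and all 8 promoters measured in the epithelial list were at 2.96% or less. Genes of these lists thus had nearly unmethylated promoters in fibroblasts where these could be measured. The promoters of Nanog, Pou5f1, Esrrb and Zfp42 were not measured here. The 5 measured matrix gene promoters, of Col1a2, Col5a1, Col6a2, Timp2 and Timp3, whose RNA was lower in each case, were at most 2.34% at 3 weeks. The highest 3-week level among 6 mesenchymal factor promoters was 12.9% at Hic1, from 6.40% in fibroblasts.

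Germline genes differed from these lists in their starting level. All 9 promoters of the germline list that could be measured were at 86.8% to 98.7% in fibroblasts and at 39.5% to 70.2% at 3 weeks. Of these, 8 lost at least 25 points, and the mean went from 92.7% to 54.2%. Over all 80 autosomal promoters at 80% or more in fibroblasts, the 9 included, 69 lost at least 25 points. The mean of the 80 went from 89.4% to 48.9%, so the loss was not particular to the germline list. Of the 9, 8 had a placement score of at least 12 and 7 at least 10 positions. In RNA, 15 of 16 genes compared were higher and 0 lower, against 27.0% and 17.7% over all genes, with a median log2 difference of 2.75. Most of the 16 were listed at 0 in fibroblasts and could only count as higher, and the same filter left out Asz1 and Tdrd1. Of the members with RNA in fibroblasts, Piwil2, Sycp1, Sycp3 and Taf7l were higher, and Ddx4 stayed within 2-fold. The sequences before the start sites of 3 genes of the germline list and of Sohlh2 are given. They show where measured CpGs lie in promoters that lost methylation. They are from RefSeq (GRCm38.p6), in lower case, 5′ to 3′ on the gene's strand, with the CpGs measured in both libraries in capitals. Measured CpGs that span the start site or lie after it count in the promoter levels but are not marked. The positions are those of the 250 bases in mm9, chr1:168168876-168169125 on the minus strand for Mael, and on the plus strand chr3:95363349-95363598 for Hormad1, chr3:40512543-40512792 for Slc25a31 and chr3:54985716-54985965 for Sohlh2.
Mael: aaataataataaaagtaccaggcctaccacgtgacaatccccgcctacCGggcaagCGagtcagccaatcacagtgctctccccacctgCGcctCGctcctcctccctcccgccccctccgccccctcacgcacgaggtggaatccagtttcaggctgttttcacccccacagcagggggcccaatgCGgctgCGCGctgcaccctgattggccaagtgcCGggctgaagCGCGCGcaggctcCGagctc
Hormad1: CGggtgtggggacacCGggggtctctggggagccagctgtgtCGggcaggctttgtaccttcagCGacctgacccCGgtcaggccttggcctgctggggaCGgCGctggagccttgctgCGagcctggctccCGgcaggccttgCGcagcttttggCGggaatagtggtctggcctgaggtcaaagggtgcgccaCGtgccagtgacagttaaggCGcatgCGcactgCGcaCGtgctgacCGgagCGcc
Slc25a31: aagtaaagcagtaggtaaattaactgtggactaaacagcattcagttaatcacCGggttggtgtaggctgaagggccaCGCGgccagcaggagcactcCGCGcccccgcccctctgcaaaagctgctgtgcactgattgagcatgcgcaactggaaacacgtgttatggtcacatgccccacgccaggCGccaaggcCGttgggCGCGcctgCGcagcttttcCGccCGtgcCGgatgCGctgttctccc
Sohlh2: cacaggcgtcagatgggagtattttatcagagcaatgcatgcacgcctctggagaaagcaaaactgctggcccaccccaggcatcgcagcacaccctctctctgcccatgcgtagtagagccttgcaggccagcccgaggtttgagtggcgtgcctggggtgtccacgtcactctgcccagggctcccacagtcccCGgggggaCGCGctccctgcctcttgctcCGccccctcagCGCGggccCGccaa

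Mael, a gene of transposon silencing in the germline, went from 93.2% of 3140 reads (95% Wilson interval 92.2% to 94.0%) to 39.5% of 2770 reads (37.7% to 41.3%), and all 24 positions in its window were lower. Its RNA was listed at 0 in fibroblasts and at 15.1 FPKM at 3 weeks. Hormad1, a gene of meiotic chromosome axes, went from 88.3% to 41.9%, with 30 of 32 positions lower, and its RNA from a listed 0 to 32.95 FPKM. Slc25a31, the testis ADP/ATP carrier, went from 95.1% to 45.0% with all 19 positions lower, and its RNA reached only 3.82 FPKM. Sohlh2, a transcription factor gene of germ cells outside the list, had 1 of the 10 largest falls, from 96.7% to 34.1% at all 10 positions, and went from a listed 0 to 20.98 FPKM. Single positions of these windows ran from 13.3% to 74.0% at 3 weeks, so the loss was partial and uneven along each promoter.

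The other germline promoters kept more. Dazl, an RNA-binding gene of germ cells, went from 98.7% to 57.5% and its RNA from a listed 0 to 14.4 FPKM. Ddx4 (Vasa) went from 92.0% to 46.0% at 4.74 and 7.87 FPKM, and Sycp1 of the synaptonemal complex from 91.7% to 60.5% at 3.18 and 7.78 FPKM. Fkbp6 went from 92.6% to 66.0% and from a listed 0 to 34.8 FPKM. Tex101 lost the least, from 86.8% to 70.2%, with 1.76 FPKM at 3 weeks. Asz1 went from 96.1% to 61.4%, and its RNA was listed at 0 in both libraries. Loss of methylation and the RNA level therefore did not run in parallel over these genes.

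Over all 121 autosomal promoters that lost at least 25 points, the mean went from 77.3% to 36.4%. Of their genes 55 could be compared in RNA: 43 were higher, 1 lower and 11 between, with a median log2 difference of 2.27, against 1500 of 6758 higher (22.2%) and a median of 0.12 over all autosomal genes with a measured promoter. At a placement score of at least 12, 33 of 40 were higher, and with at least 10 positions 25 of 30. Of the 43 higher genes 30 were listed at 0 in fibroblasts, against 289 of the 1500. Such genes were compared only if they reached 1 FPKM at 3 weeks, so they could only count as higher. The counts at the stricter settings share this limit. Among promoters at 50% or more in fibroblasts that lost at least 25 points, 34 of 45 genes were higher and 1 lower. Among those at 50% or more that lost less than 25 points, 8 of 14 genes were higher and 5 lower. The same filter applied to both. Besides Sohlh2, the 10 largest falls held Jade1, a chromatin-reader gene, from 93.8% to 29.4% with RNA from 31.1 to 388 FPKM. They also held Tmprss12, from 93.1% to 26.8% with RNA from a listed 0 to 2.59 FPKM, and Hsf5, from 91.7% to 29.96% at a listed 0 and 0.76 FPKM. A gene can have other start sites, and FPKM per gene does not say which one was used. The E-box CACGTG was found, on either strand, in 15 of the 121 windows (12.4%) and 10.9% of the 8262, and TCCCGC in 28 (23.1%) and 44.8%. Both motifs contain a CpG, and the windows held a median of 14 CpGs against 26 over all 8262.

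**Figure D3:**
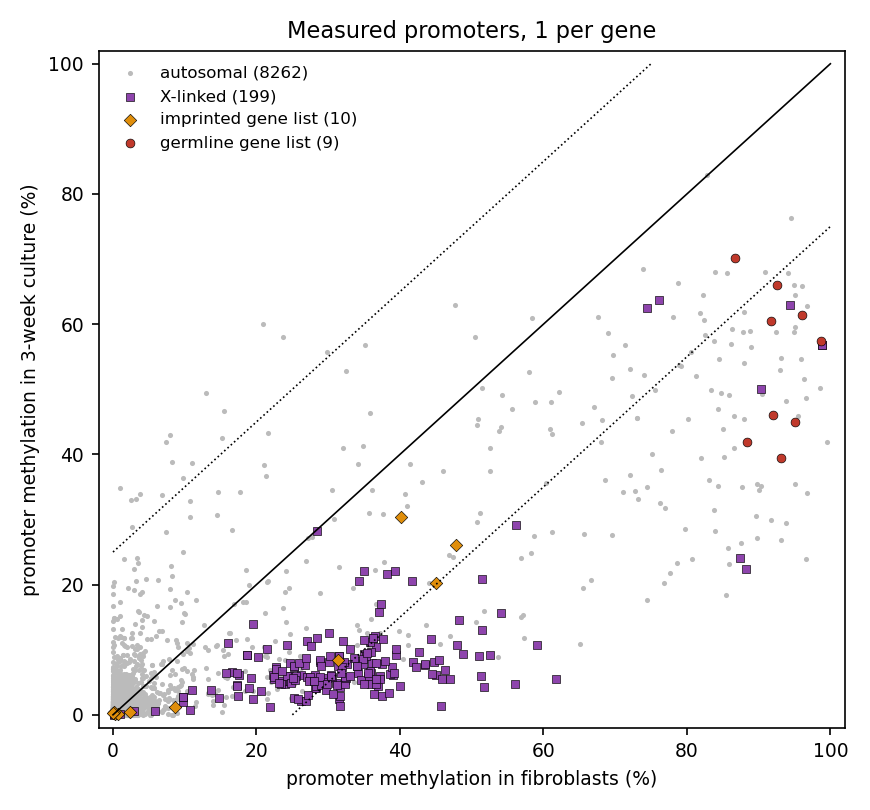
Each point is the promoter window of 1 gene, by its methylation in wildtype fibroblasts (x axis, %) and in the wildtype 3-week culture (y axis, %). The solid line marks equal levels and dotted lines a difference of 25 points. The 9 germline promoters start at 86.8% to 98.7% and lie at 39.5% to 70.2% at 3 weeks, and X-linked promoters (squares) gather near 32% in fibroblasts and 6% at 3 weeks.

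Promoters of imprinted genes that stood at intermediate levels in fibroblasts were lower at 3 weeks. Zrsr1 went from 47.8% to 26.0%, Mcts2 from 45.1% to 20.2%, Igf2r from 31.4% to 8.50% and Plagl1 from 40.1% to 30.3%. Their RNA differed in direction: Mcts2 was at 38.7 and 79.9 FPKM, Zrsr1 at 35.3 and 37.2, Igf2r at 173 and 155 and Plagl1 at 51.3 and 11.2. In the whole imprinted list 10 of 25 genes compared (40%) were higher and 8 (32%) lower, against 27.0% and 17.7% over all genes. H19 and Igf2, neighbours on chromosome 7, were both higher, from 3.00 to 114 and from 12.8 to 33.9 FPKM. In the Dlk1-Dio3 region of chromosome 12, Dlk1, Meg3, Rian and Dio3 were lower, Meg3 from 319 to 97.6 FPKM, while Mirg was at 20.1 and 11.4 FPKM and Rtl1 was higher, from 0.89 to 10.6. Files of this kind do not separate the parental copies.

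Hox promoters behaved in more than 1 way. Hoxa5 went from 53.7% to 8.92% and Hoxa6 from 24.6% to 6.21%, while their RNA was at 5.17 and 3.72 FPKM and at 3.63 and 2.05 FPKM. Of 11 measured Hox promoters 7 were below 5% in both libraries. In RNA 14 of 33 Hox genes compared (42.4%) were lower and 2 (6.06%) higher, against 17.7% and 27.0% over all genes. Among them Hoxc12 went from 204 to 38.4 FPKM, Hoxb9 from 155 to 53.6 and Hoxc13 from 119 to 25.1.

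Gains of methylation at promoters were rare. Of the 17 promoters that gained at least 25 points, 8 could be compared in RNA, and 3 were higher and 3 lower. With a placement score of at least 12, or with at least 10 positions, only 2 of the 17 were left, and neither Cck nor Dpep1 was among them. The windows before Cck and Dpep1 are shown as gains with opposite RNA directions. In mm9 they span chr9:121404813-121405062 on the minus strand and chr8:125709885-125710134 on the plus strand, with capitals as above.
Cck: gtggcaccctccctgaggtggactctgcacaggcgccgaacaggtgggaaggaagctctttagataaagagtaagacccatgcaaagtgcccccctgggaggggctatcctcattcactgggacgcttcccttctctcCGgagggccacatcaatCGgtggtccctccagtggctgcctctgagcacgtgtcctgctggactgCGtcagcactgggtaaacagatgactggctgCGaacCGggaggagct
Dpep1: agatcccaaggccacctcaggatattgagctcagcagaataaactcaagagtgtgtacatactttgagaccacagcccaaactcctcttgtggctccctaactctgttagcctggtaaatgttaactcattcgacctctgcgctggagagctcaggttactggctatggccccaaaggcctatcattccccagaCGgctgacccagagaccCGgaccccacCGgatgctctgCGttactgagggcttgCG

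Cck, the cholecystokinin gene, went from 3.70% of 972 reads to 34.0% of 951 reads, with all 5 positions higher, while its RNA went from 21.9 to 1993 FPKM. Dpep1, a membrane dipeptidase gene, went from 15.5% to 46.7%, with all 7 positions higher, and its RNA from 119 to 2.67 FPKM. Calml4 went from 0.995% to 34.9% and Arpp21 from 23.7% to 58.0%, at 7.33 and 6.07 FPKM and at a listed 0 in both libraries. Calml4 passed the stricter score but held 8 positions, and Arpp21 passed neither setting.

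The X chromosome differed from the autosomes in its starting level. Its 199 measured promoters had a median of 31.7% in fibroblasts, with the middle 50% of them between 25.3% and 37.5%, against 0.116% over autosomal promoters. At 3 weeks the X median was 6.42%, with the middle 50% between 4.84% and 9.18%, and 198 of 199 promoters were lower. At least 25 points were lost at 88 of the 199. The same was seen in tiles with at least 20 positions: 372 X tiles went from 33.5% to 10.1%, and 15552 autosomal tiles from 6.69% to 4.38%. Highly methylated tiles were closer to each other: those at 80% or more in fibroblasts went from 89.3% to 63.3% on X and from 90.2% to 60.7% on autosomes. These X classes, and the X-linked genes named below apart from Pgk1, Suv39h1, Jpx, Xist, Rlim and Tsix, were chosen after their values were seen.

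**Figure D4:**
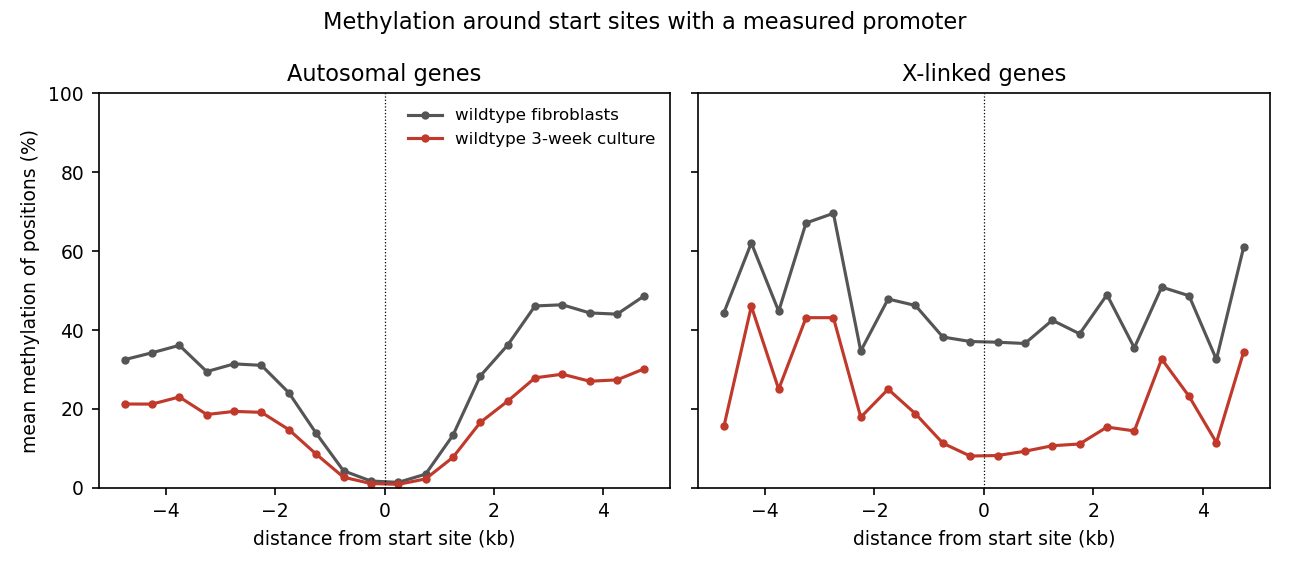
Mean methylation of positions (y axis, %) in 500 bp bins around the start sites (x axis, kb) of 8262 autosomal genes and 199 X-linked genes with a measured promoter, in wildtype fibroblasts (grey) and the wildtype 3-week culture (red). Autosomal start sites lie below 2% in both libraries, with the difference between the libraries in the flanks, whereas X-linked start sites lie at 37% in fibroblasts and 8% at 3 weeks. X bins far from the start hold as few as 6 positions.

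Around start sites the autosomal difference lay mostly in the flanks. In the 500 bp after the start site the mean was 1.39% in fibroblasts and 0.885% at 3 weeks, and 2500 to 3000 bp after it the mean was 46.1% and 27.9%. Genes that were higher in RNA had 50.6% and 27.9% in that flank, genes that were lower 41.3% and 29.5%, and genes between 56.7% and 32.9%. X-linked genes lost as much at the start itself, from 36.9% to 8.19%, as in the flanks.

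Some X promoters were nearly free of methylation in fibroblasts. Jpx, an RNA gene of the inactivation centre, was at 0.0968%, Kdm6a, a histone demethylase gene known to escape X inactivation, at 0.146%, Tmem29 at 0.914% and 5530601H04Rik at 2.88%. At the other end Cul4b, Yy2 and Ccnb3 were at 88.3%, 87.5% and 94.3% and went to 22.4%, 24.1% and 62.9%. Pgk1, a glycolysis gene subject to X inactivation, and Kdm6a are shown as a promoter that lost methylation and one that had none. Their windows in mm9 are chrX:103382189-103382438 and chrX:17739451-17739700, both on the plus strand, with capitals as above. For Pgk1 only 4 of the 13 measured positions are thus in capitals, at 16 to 26 fibroblast reads each. The others lie between 1 base before the start and 42 bases after it, at 17 to 319 fibroblast reads.
Pgk1: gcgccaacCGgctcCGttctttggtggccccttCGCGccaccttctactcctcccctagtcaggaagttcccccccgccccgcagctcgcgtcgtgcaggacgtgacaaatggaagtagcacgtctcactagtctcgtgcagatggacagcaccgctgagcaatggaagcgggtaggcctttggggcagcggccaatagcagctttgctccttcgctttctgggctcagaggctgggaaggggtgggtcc
Kdm6a: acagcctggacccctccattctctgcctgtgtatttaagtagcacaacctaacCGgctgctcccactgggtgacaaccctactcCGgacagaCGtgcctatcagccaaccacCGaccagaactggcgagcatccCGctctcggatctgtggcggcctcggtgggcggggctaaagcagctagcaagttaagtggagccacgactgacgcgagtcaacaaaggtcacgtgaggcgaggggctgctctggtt

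Pgk1 went from 21.9% of 1653 reads (95% Wilson interval 19.97% to 23.96%) to 1.21% of 742 reads (0.639% to 2.29%), with 11 of 13 positions lower, and its RNA from 186 to 359 FPKM. Kdm6a was at 0.146% of 686 reads and 0 of 872 reads (95% Wilson upper bound 0.439%), and its RNA at 53.1 and 156 FPKM. Suv39h1, a histone methyltransferase gene, went from 26.7% to 7.71% and from 33.3 to 81.6 FPKM. Alg13, a glycosylation gene, went from 52.5% to 9.19% and from 17.4 to 499 FPKM. Pgk1 stayed within 2-fold, and so did 2 of the nearly unmethylated genes: Tmem29 was at 61.5 and 36.2 FPKM and 5530601H04Rik at 10.8 and 13.8. Jpx was also within 2-fold on the log2(FPKM + 1) scale, at 2.23 and 0.81 FPKM. Mid1, whose promoter went from 9.69% to 2.00%, was lower, from 138.65 to 9.00 FPKM. Of the nearly unmethylated genes named, Kdm6a was thus higher and the others stayed within 2-fold. Among named genes with methylation to lose, Mid1 was lower, while Suv39h1 and Alg13 were higher. Cul4b and Yy2 were also higher, from 146 to 566 and from 8.55 to 52.3 FPKM. The window of Kdm6a had a placement score of 11.5 and 8 positions, below the stricter settings of 12 and 10.

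X-linked RNA levels stood higher as a group. Of 569 X-linked genes compared 241 (42.4%) were higher and 89 lower, with a median log2 difference of 0.69, against 26.4% higher and a median of 0.15 over 14488 autosomal genes. Among genes with at least 10 FPKM in both libraries the medians were 0.34 over 311 X-linked and 0.04 over 9567 autosomal genes. Of the 158 genes compared whose X promoter was at 15% to 60% in fibroblasts, 61 were higher and 18 lower. Xist went from 456 to 149 FPKM, while its antisense gene Tsix was at 0.20 and 1.61 FPKM. Reads of an overlapping antisense pair are separated only by strand, which the sources used here do not describe. Rlim, the gene of a ubiquitin ligase that activates Xist, went from 110 to 368 FPKM. Xist RNA was thus lower but still present.

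The other RRBS libraries of the study give the X promoter level a frame. Over 172 X promoters measured in all 10 RRBS libraries the median was 28.4% in wildtype fibroblasts, 6.43% in the wildtype 3-week culture and 0.186% to 0.258% in the 3 wildtype clones. In the 5 AID-null libraries, which list many Y positions, it was 0.0385% to 0.188%, the fibroblasts of that genotype included. The wildtype fibroblasts stood apart from all others and the 3-week culture lay between them and the rest.

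**Figure D5:**
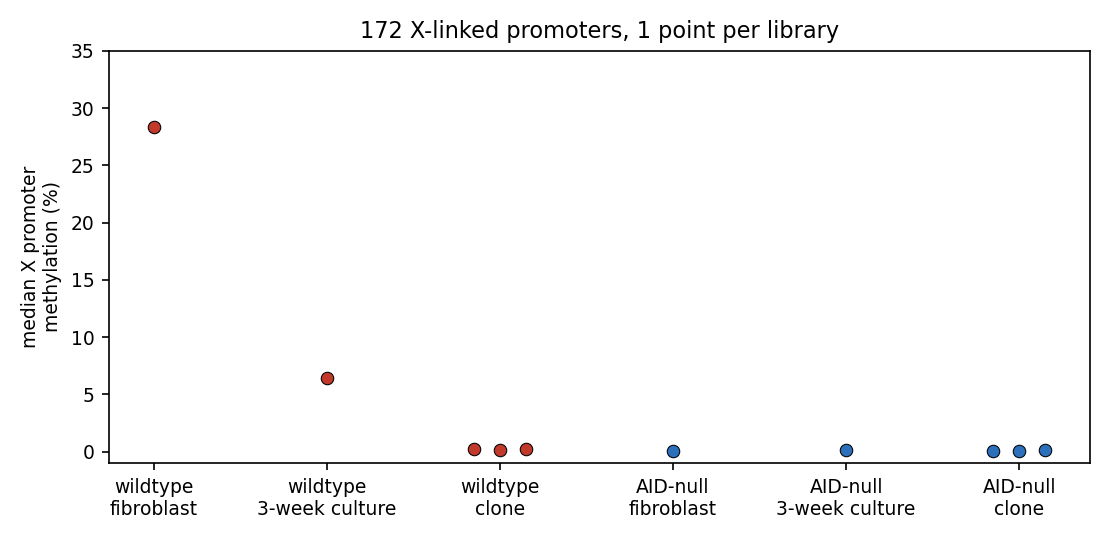
Median methylation of 172 X-linked promoters (y axis, %) in each of the 10 RRBS libraries, grouped by label (x axis), with 1 point per library and positions covered in all 10. Wildtype fibroblasts lie at 28.4%, the wildtype 3-week culture at 6.43% and the other 8 libraries below 0.26%.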

How the data were processed

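RRBS and RNA libraries of wildtype tail fibroblasts and of the wildtype 3-week culture were compared, 1 library per side. Titles gave the groups. The submitters' processing notes list the build mm9 and the tools TopHat, Cufflinks, Bismark and methylKit, without versions. Per the file headers, the deposited RRBS files give the coverage of each position as a read count and the percent methylated (C) and converted (T), and each position has at least 10 reads. C and T summed to under 100 in 5.97% of fibroblast and 1.63% of 3-week positions. The deposited RNA files give FPKM, normalised by the authors, with sums of 2012350 and 1791060.

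Methylation is methylated reads over coverage at positions covered in both libraries, without those above the 99.9th percentile of coverage (720 and 983 reads). Tiles of 1000 bp needed 3 positions and promoters 5. Promoters were placed by CpG spacing, with a score of at least 9 (CpGs matched in a row, times the log10 of window length over CpGs in the window) and a lead of 3 over the next place. No coordinates were converted. RNA differences used log2(FPKM + 1), which understates changes of low genes. Of the symbols 98.7% matched the GRCm38.p6 gene table, used for names and chromosomes. Members and the 35 gene lists (643 distinct genes, 641 found) were chosen with earlier results of these data known. Named were list members, the 15 largest rises and falls outside the lists with at least 10 FPKM, the 10 largest promoter falls and rises and 5 tiles each way with at least 10 positions. X-linked promoters and X, density and start-site classes were added after values were seen. Scripts ran in Python 3.11.15 with numpy 2.4.6, pandas 2.3.3, numba 0.67.0 and matplotlib 3.10.9 and were tested on simulated data. Near-identical gene copies are uncertain in FPKM. Alternatives are given in the closing section.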

Additional observations from a re-analysis of the deposited data

How the results depend on the processing

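No paired analysis was possible because each side of the comparison had 1 library per assay. The 37958 tiles lower and 2783 higher by 25 points became 19169 and 1140 with at least 5 positions per tile, where fewer tiles are tested (68579), and 10429 and 565 with a limit of 40 points. The other 7 tile settings stayed within 1.5 times. The 121 promoters lower and 17 higher became 78 and 2 at a placement score of at least 12, and 53 and 2 with at least 10 positions. The mean autosomal tile difference of -15.1 points was -6.07 over pooled reads, -9.53 as a mean of positions, -14.9 at a coverage of at least 20 and -14.7 over positions covered in all 10 RRBS libraries. For X the difference of -22.0 was -23.7, -24.96, -22.1 and -21.4 in that order. The median X promoter difference of -24.3 points was -24.3 at a score of at least 12 and with at least 10 positions, -24.0 at a coverage of at least 20 and -28.8 as a mean of positions, alternatives chosen after the data were seen. Pooled reads weight CpG-dense, unmethylated DNA more, and the cause of the other shifts was not tested. Gene counts stayed within 1.5 times, at 2772 to 4286 higher and 2021 to 2899 lower. Of 420 list counts recomputed 401 stayed within 1.5 times, and of 2528 gene differences 0 reversed among those past 2-fold. Scaling by upper quartile or median of ratios turned the sign of 1 list median, that of the neural list, from 0.04 to -0.03 and -0.01. Neither assay measured a spread between cultures, and the files do not give the depth behind FPKM.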

Other observations

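Signalling genes, which the account above leaves out, were divided by pathway. The list counts in this section stand beside 27.0% higher and 17.7% lower over all genes compared. Among FGF and ERK feedback genes 12 of 20 were higher and 3 lower: the ligand gene Fgf4 stood at 250 FPKM against a listed 0, and the feedback genes Dusp6, Spry4 and Etv5 went from 43.6 to 272, from 13.9 to 145 and from 46.5 to 353 FPKM, while the receptor gene Fgfr2 went from 135 to 8.46. TGF-beta, activin and BMP genes were lower in 15 of 28 cases and higher in 3, with the ligand gene Tgfb3 from 671 to 25.3 FPKM and the receptor gene Tgfbr2 from 502 to 95.03. Wnt pathway genes were lower in 12 of 21 cases and higher in 3: the inhibitors Sfrp2 and Dkk3 went from 1990 to 18.9 and from 740 to 47.1 FPKM, and the nuclear factors Lef1 and Tcf7 from 0.64 to 18.2 and from 5.71 to 65.4. In the LIF and Stat3 list 6 of 11 were lower, among them the receptor subunit gene Il6st (gp130), from 1226 to 129 FPKM, and the ligand gene Lif was higher, from 13.0 to 93.3.

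Interferon response and antigen presentation genes were lower in 13 of 24 cases and higher in 1, with B2m from 5694 to 1711 FPKM and H2-K1 from 779 to 162. Genes of other early lineages appeared at low levels. Of 12 primed and mesendoderm genes 11 were higher, but only Otx2, Pou3f1 and Zic2 of these passed 35 FPKM at 3 weeks, at 168, 72.9 and 38.3. Of 15 primitive endoderm and trophoblast genes 13 were higher, with Gata4 at 17.0 and Tfap2c at 33.9 FPKM against a listed 0. All 11 higher genes of the primed list and most of these 13 were listed at 0 in fibroblasts. Once compared, they could only count as higher. Fgf5, the other primed gene compared, was at 19.35 and 35.89 FPKM. Of 21 glycolysis and glucose uptake genes 9 were higher and 0 lower: Slc2a3 went from 13.4 to 864 FPKM and Hk2 from 46.5 to 253, while Aldoa, Ldha, Pkm and Tpi1 did not pass 2-fold. Respiratory chain genes were higher in 5 of 27 cases (18.5%), a smaller share than the 27.0% over all genes, and lower in 0.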
